A study of Mus musculus with 2 samples.

Results

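The 32 genes described here encode stress sensors, chaperones, disulfide enzymes, degradation factors and translocon subunits of the endoplasmic reticulum (ER). They were listed by name for these functions, with no signal threshold but with earlier results of these data known. Their array probes were found through the RefSeq accession of each probe. All 32 were among the 20653 genes named on the arrays, with 40 of the 39417 probes, and the probe used for each was well above background on both arrays.

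MIN6 cells, an insulinoma line derived from a transgenic C57Bl/6 mouse and kept at passages 15 to 20, were transduced with the lentiviral vector pLVX-IRES-ZsGreen1-FTO, which carries mouse FTO and a green fluorescent protein. FTO is an RNA demethylase. The control MIN6 cells, of the same passages, received the empty vector pLVX-IRES-ZsGreen, so both groups carried the fluorescent marker. Green fluorescence was looked at 48 h after transduction, while the time of RNA harvest, the promoter that drives FTO and whether the cells were a pool or a clone were not given in the sources used here. Total RNA labeled with Cy3 was hybridized to 1 one-color Agilent mouse array per condition, both on the same slide, and the comparison asks how transcripts of the ER folding machinery differ when FTO is supplied. With 1 array per condition there was no replicate check, so no p-value is given, and precision is limited by the number of arrays.

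The ER is where insulin and other secreted proteins enter the secretory pathway, fold and form their disulfide bonds. Proteins that fail to fold are returned to the cytosol for degradation, and the unfolded protein response, started by the sensors IRE1α, ATF6 and PERK, adjusts the chaperone and degradation genes to the load. Beta cells make very large amounts of proinsulin and are known for their dependence on this response.

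Target genes of ATF6 and XBP1 are known for the ER stress response element (ERSE) in their promoters. ERSE consists of CCAAT and CCACG with 9 bases of any kind (N) between them, and the related element ERSE-II of ATTGG and CCACG with 1 base between them. Both were searched on both strands of the promoters that RefSeq's annotation of mouse GRCm38.p6 gives, each from 250 bases before the gene's start to 50 bases after it. A promoter was at hand for 27 of the 32 genes. Those of Atf6, Hyou1, Manf, Derl1 and Sec61a1 were not analysed here. ERSE was found in 9 of these 27 promoters (33.3%) and in 39 of all 32851 promoters (0.119%). ERSE-II was found in 2 of 27 (7.41%) and in 12 of all promoters (0.0365%). The XBP1 motif TGACGTGG was in 0 of 27 and in 0.676% of all promoters. The matched bases are shown because they are a feature that the choice of the genes did not use, although ERSE was described in promoters of ER chaperone genes such as Hspa5, Hsp90b1 and Calr. Each is read 5′ to 3′ on the strand that carries the motif, with the fixed letters in capitals.
Hspa5: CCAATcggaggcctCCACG
Hsp90b1, copy nearer the start: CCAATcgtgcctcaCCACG
Hsp90b1, copy farther from the start: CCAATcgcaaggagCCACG
Calr: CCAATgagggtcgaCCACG
Canx: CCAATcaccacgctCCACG
Pdia6: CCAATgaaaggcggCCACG
Creld2: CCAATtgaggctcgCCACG
Dnajc3: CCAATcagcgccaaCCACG
Syvn1: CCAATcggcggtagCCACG
Derl3: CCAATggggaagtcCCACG
Herpud1 (ERSE-II): ATTGGgCCACG
Dnajb11 (ERSE-II): ATTGGcCCACG

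The 10 ERSE copies lay between 212 and 26 bases before the start, 6 on the strand of the gene and 4 on the opposite strand. That of Hspa5 is at chr2:34772025-34772043 on the + strand, 65 to 47 bases before the start. Hsp90b1 held 2 copies, at chr10:86705533-86705551 and chr10:86705638-86705656, in opposite orientations. The copies nearest to and farthest from a start were those of Syvn1 (44 to 26 bases before it) and Hsp90b1 (212 to 194 bases). The ERSE-II of Herpud1 was 52 to 42 bases before the start, and that of Dnajb11 lay 8 to 18 bases into the transcript. With 1 mismatch allowed among the fixed letters, ERSE was found in 14 of the 27 promoters (51.9%) and in 494 of all (1.5%), which added Derl2, Herpud1, Pdia3, Pdia4 and Sel1l. A match is a description of the sequence and no measure of factor binding.

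The 250 bases before the start of Hspa5, Hsp90b1 and Herpud1 are given to show these matches in their surroundings. They span chr2:34771840-34772089 on the + strand for Hspa5, chr10:86705445-86705694 on the - strand for Hsp90b1, and chr8:94386179-94386428 on the + strand for Herpud1. Capitals mark the fixed letters of the matches, which read in reverse complement (CGTGG and ATTGG) in the copy of Hsp90b1 nearer the start.
Hspa5: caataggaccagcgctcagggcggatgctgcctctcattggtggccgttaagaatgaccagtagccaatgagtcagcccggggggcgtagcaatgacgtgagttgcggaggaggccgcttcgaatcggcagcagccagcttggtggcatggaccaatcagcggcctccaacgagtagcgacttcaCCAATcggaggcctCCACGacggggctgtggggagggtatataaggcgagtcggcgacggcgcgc
Hsp90b1: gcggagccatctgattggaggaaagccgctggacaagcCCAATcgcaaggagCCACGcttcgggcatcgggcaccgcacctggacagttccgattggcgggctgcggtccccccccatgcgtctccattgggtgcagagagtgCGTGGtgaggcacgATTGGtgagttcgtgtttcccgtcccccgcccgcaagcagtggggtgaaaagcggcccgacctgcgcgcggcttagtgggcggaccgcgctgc
Herpud1: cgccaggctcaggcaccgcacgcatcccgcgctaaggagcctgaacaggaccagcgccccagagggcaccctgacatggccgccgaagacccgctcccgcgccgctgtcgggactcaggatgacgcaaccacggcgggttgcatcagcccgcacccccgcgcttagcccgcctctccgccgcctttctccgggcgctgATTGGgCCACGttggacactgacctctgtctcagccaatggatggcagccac

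Of the 2 arrays, that labelled FTO was brighter as a whole, with a median spot signal of 292 against 237 on the one labelled control, and they are called the FTO and the control array below. Before normalization 86.2% of all 18513 genes tested and 30 of the 32 ER genes were brighter on it, and the differences below are after quantile normalization. The probe of Fto itself read 7301 on the FTO array and 5179 on the control array, or 0.06 higher after normalization (log2), where the spot error was 0.20. Whether that probe lies in the part of the transcript carried by the vector was not checked, so directions rest on the labels. The spot error is the error that the scanner software gives for both spots combined on the log2 scale. For the probes used for the ER genes it was 0.204 throughout (0.2043 for Hyou1), so it acts as nearly 1 fixed cutoff and does not tell their precision apart. It covers neither cultures nor hybridizations. The FTO array had 6 surface blocks where repeated probes lost signal, against 2 on the control array, and the probes used for Pdia6, Syvn1 and Sec61b and some spots of Creld2 lay in the former. All 11 beta cell markers were well above background, with Ins1 at 215620 and 220341 and Ins2 at 276722 and 320363 on the arrays labelled FTO and control. Of the other islet hormone genes, Gcg read 257411 and 243558, Ppy 14003 and 10872, and Sst 1834 and 1225. Probes of acinar, fibroblast, leukocyte and endothelial markers read from 7.2 (Cdh5) to 1241 (Kdr), with Ptprc at 33.7 and 38.0 and Adgre1 at 167.3 and 170.2. The part of such cells in the results was not tested. In bulk RNA, fewer cells of a type and less RNA per cell cannot be told apart.

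None of the 32 genes differed by 1.5-fold or more between the arrays. Among all genes tested, 2.8% were past 1.5-fold higher and 4.15% lower. Among the 9991 genes with a mean log2 signal over 10, where 31 of the 32 ER genes lie, the shares were 0.0901% and 0.4%, so a count of 0 in 32 is near this background. None was past 2-fold (1.09% of all genes tested were higher and 1.6% lower). The log2 differences of the ER genes ran from -0.51 for Hyou1 to 0.45 for Edem3, with a median of 0.03, and 20 were above 0 (62.5%) and 12 below. The median over all genes tested was 0.01, and 51.6% of them were above 0 (53.6% of those over the signal limit). Past the spot error, a limit chosen after the values were seen, 7 ER genes were higher (21.9%, against 14.3% of all genes tested and 7.63% of those over the signal limit) and 3 were lower (9.38%, against 13.5% and 6.07%). This balance depended on the scaling, with 4 higher and 10 lower under 75th percentile scaling and 7 and 7 under cyclic loess. The shares of all genes past the spot error were not counted under these scalings, so these counts have no background beside them. The median of all genes tested was -0.06 under 75th percentile scaling and 0.0002 under cyclic loess. After quantile normalization the 7 higher genes were Edem3, Sec61a1, Sel1l, Dnajb9, Syvn1, Canx and Dnajc3, and the 3 lower were Hyou1, Sdf2l1 and Ern1.

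**Figure D1:**
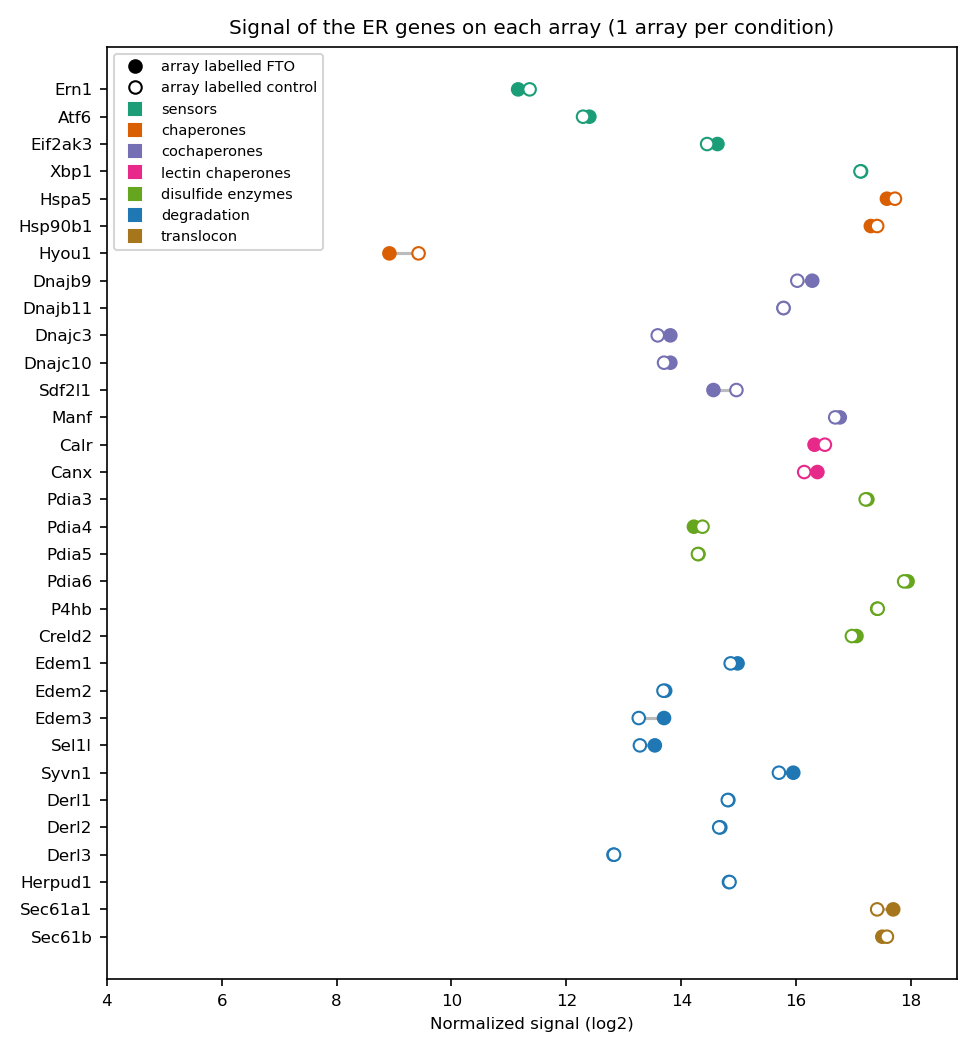
Normalized log2 signal of each of the 32 ER genes on the FTO array (filled) and the control array (open), colored by role, 1 array per condition. Levels of different probes are not comparable. The pairs lie close together, with the widest gaps at Hyou1 (-0.51) and Edem3 (0.45).

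Among the sensors, Ern1, which encodes IRE1α, the kinase and RNase that splices Xbp1 mRNA, read 2623 on the FTO array and 2295 on the control array. After normalization its log2 difference was -0.205, just past its spot error of 0.204. Without the surface blocks that had lost signal it was -0.203, inside that error. Eif2ak3, which encodes PERK, the kinase that slows translation through eIF2α, read 29556 and 19228, a log2 difference of 0.18. Atf6, the membrane-bound transcription factor, read 6250 and 4321, a difference of 0.11. Both lay within the spot error, but Eif2ak3 was past it with cyclic loess (0.22), normexp (0.23) and no background subtraction (0.23). Xbp1, the transcription factor made from the spliced mRNA, read 154507 and 132108, a difference of 0.02. It was -0.199 with 75th percentile scaling and -0.11 with cyclic loess, within the spot error in both. Whether this probe separates spliced from unspliced mRNA was not checked. The median of the 4 genes was 0.06, but -0.05 with 75th percentile scaling and -0.0053 with cyclic loess. The genes of the 3 sensors did not share a direction.

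The signals of Hspa5, which encodes BiP, the Hsp70 chaperone of the ER, were 204888 on the FTO array and 209159 on the control array. It was 1 of 2 ER genes that were dimmer on the FTO array before normalization, and its normalized log2 difference was -0.14. Hsp90b1, which encodes the Hsp90 chaperone GRP94, read 170794 and 164646, a difference of -0.12. Both differences lay within the spot error, and the size of both depended on the scaling, with -0.46 and -0.37 under 75th percentile scaling and -0.35 and -0.27 under cyclic loess, all past the spot error. Hyou1, a large Hsp70 relative that acts as a nucleotide exchange factor for BiP, read 545.5 and 608.0, a difference of -0.51, or 1.42-fold lower. Of the 1120 genes of like signal (within 0.5 log2), 2.68% had a lower difference. Under 75th percentile scaling Hyou1 reached -0.58, where the 1.5-fold limit is 0.585 in size. Its probe lay in a block of the control array that had lost signal, so no value remained without those blocks. The median of these 3 genes was -0.14, and all 3 were below 0 in every way of processing that gave a value. Several of these ways reuse the same probe and normalization and could not change the sign.

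The partners of BiP differed in direction. Dnajb9, an Hsp40 cochaperone that brings clients to BiP and restrains IRE1α, read 89483 on the FTO array and 58260 on the control array, a log2 difference of 0.26. A second probe of Dnajb9 read 11688 and 8261, a difference of 0.07. Dnajb9 was past its spot error, but not with 75th percentile scaling (0.19) or as the mean of both probes (0.17). Dnajc3, which encodes p58IPK, an Hsp40 that inhibits eIF2α kinases, read 16731 and 10580, a difference of 0.22. For Dnajb9 and Dnajc3, 3.64% and 5.45% of the genes of like signal had a higher difference. Dnajc10, an Hsp40 with thioredoxin domains that reduces disulfides before degradation, read 16783 and 11421, a difference of 0.11. Manf, a secreted ER stress-induced factor that binds BiP, read 122871 and 94088, a difference of 0.08. Dnajb11, an Hsp40 that delivers clients to BiP, read 64531 and 49066, a difference of -0.0055. These 3 lay within the spot error, but Dnajb11 was past it as the mean of both its probes (0.21). A dim second probe of Dnajb11 read 20.0 and 14.8, a difference of 0.42 with a larger spot error of 0.36. Sdf2l1, a stress-induced partner of the ER Hsp40 proteins, stood apart from the others of this group. It read 28070 and 27274, a difference of -0.40, or 1.32-fold lower, and 0.366% of the 1365 genes of like signal had a lower difference. The median of the 6 was 0.10.

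**Figure D2:**
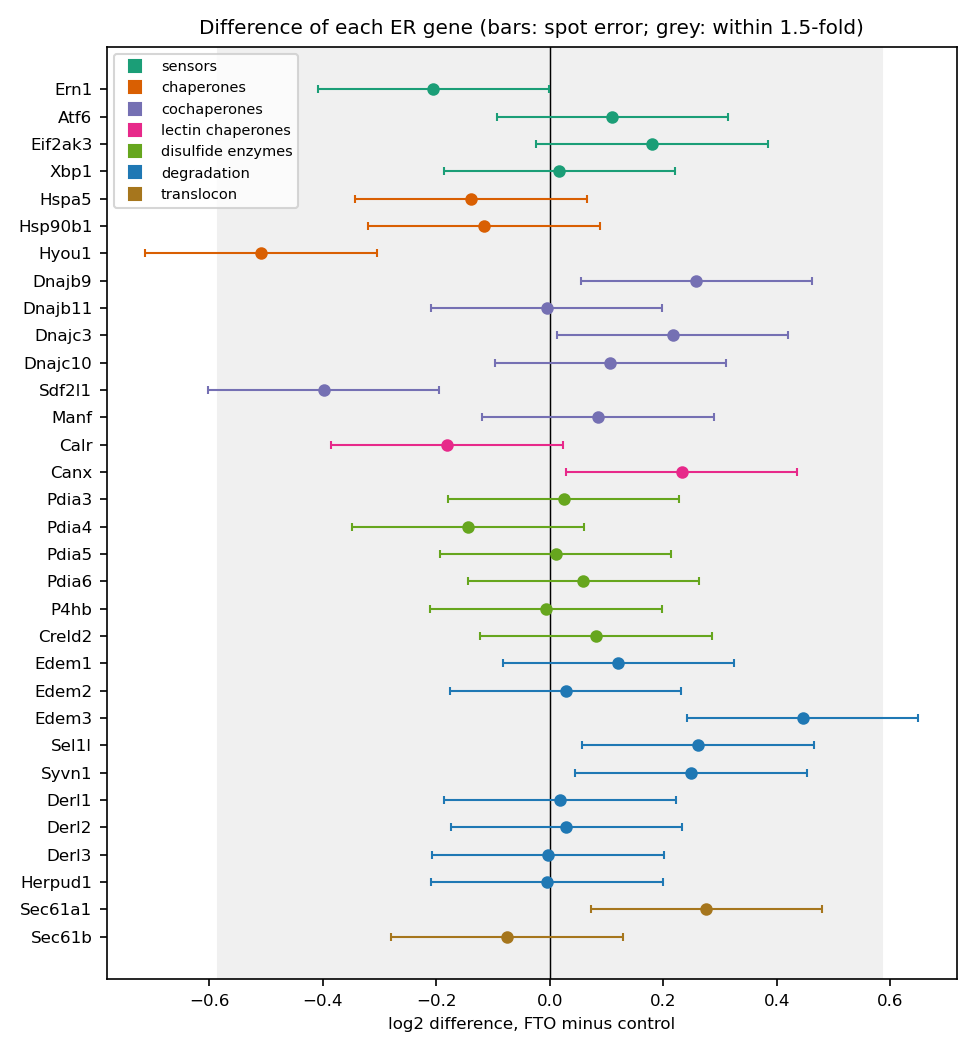
Difference in log2 signal of each ER gene, FTO array minus control array, by role, with bars for the spot error of the probe and grey for the range within 1.5-fold. The bars are of nearly the same length for all 32 genes. All 32 points lie within the grey range, and 10 bars (7 higher, 3 lower) do not reach 0.

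Calr and Canx encode calreticulin and calnexin, the soluble and the membrane-bound lectin chaperones that hold glycoproteins with trimmed sugars. Calr read 92147 on the FTO array and 83247 on the control array, a log2 difference of -0.18, and Canx read 94595 and 63282, a difference of 0.23. The pair lay on opposite sides of 0, Calr within and Canx past its spot error. These calls depended on the processing. Calr was past the error with 75th percentile scaling (-0.28), cyclic loess (-0.21), normexp (-0.27) and no background subtraction (-0.27), and Canx was within it with 75th percentile scaling (0.15). Of the genes of like signal, 5.87% were lower than Calr and 5.14% higher than Canx. The probe of Canx lay in a block of the control array that had lost signal.

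The 6 disulfide enzymes ranged from -0.14 to 0.08, and all lay within the spot error. With 75th percentile scaling, however, Pdia3 (-0.21), Pdia6 (-0.29) and P4hb (-0.27) were past it, and so was Pdia6 (0.25) without the blocks that had lost signal. P4hb encodes protein disulfide isomerase itself. It read 184252 on the FTO array and 165137 on the control array, a log2 difference of -0.0065. Pdia3 encodes ERp57, the isomerase that works with calnexin and calreticulin, and read 165138 and 142355, a difference of 0.02. Pdia4, which encodes ERp72, had the lowest value, -0.14, with signals of 22325 and 18133. Pdia5 read 23494 and 17225, a difference of 0.01. Pdia6, which encodes P5, an isomerase that acts with BiP and on IRE1α, read 258261 and 234449, a difference of 0.06. Its second probe read 53403 and 33695, a difference of 0.24. The first of these probes lay in a block of the FTO array that had lost signal, and the second did not. Creld2, a stress-induced ER protein with isomerase activity, was printed 10 times per array, which shows the spread between spots. On the FTO array its 9 usable spots ran from 140445 to 151883 with a median of 149066 (SD 0.04 on the log2 scale), and on the control array its 10 spots ran from 102154 to 126548 with a median of 118634 (SD 0.09). The spots of the arrays did not overlap before normalization, where 86.2% of all genes tested were brighter on the FTO array. How often the spots of other repeated probes overlapped was not counted. Repeated spots show the spread within an array and not that between cultures or hybridizations. The normalized log2 difference was 0.08, within the spot error. It was 0.09 without the blocks that had lost signal, in which 2 of the printed spots lay.

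Among the 9 degradation genes, 3 were higher by more than the spot error (background 14.3% of all genes tested and 7.63% of those over the signal limit), none was lower by as much, and 7 were above 0 (background 51.6% and 53.6%). Edem3, which trims mannose from misfolded glycoproteins and so marks them for degradation, read 15535 on the FTO array and 8436 on the control array. Its log2 difference was 0.45, or 1.36-fold higher, and 0.207% of the 1930 genes of like signal had a higher difference. Its value stayed between 0.41 and 0.46 in the 10 ways of processing, several of which reuse the same probe and normalization and could not move it. Its relatives Edem1 (37719 and 25578) and Edem2 (15695 and 11351) had differences of 0.12 and 0.03, within the spot error. The 3 Edem genes were above 0 in all 10 ways of processing, with the same limit.

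Sel1l and Syvn1 encode the scaffold SEL1L and the ubiquitin ligase HRD1 of the main ligase complex of ER-associated degradation. Sel1l read 13819 on the FTO array and 8550 on the control array, a log2 difference of 0.26, and Syvn1 read 72234 and 46431, a difference of 0.25. Of the genes of like signal, 2.68% and 3.93% had higher differences. Both were past the spot error, and both were above 0 in every way of processing that gave a value, though several of these could not move them. Herpud1, the stress-induced membrane protein that joins this complex, read 34082 and 25143, a difference of -0.0050. The derlins, membrane proteins through which clients leave the ER, lay near 0 after quantile normalization. Derl1 read 33830 and 24585 (0.02), Derl2 read 30623 and 22184 (0.03), and Derl3 read 8418 and 6259 (-0.0032). With normexp Derl1 was 0.06, Derl2 -0.07 and Derl3 -0.13, all within the spot error. Second probes gave -0.0042 for Derl1 and 0.09 and -0.25 for Derl2, the last in a block that had lost signal. The median of the 9 degradation genes was 0.03.

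Sec61a1 encodes the channel through which new proteins enter the ER, and Sec61b encodes a small subunit of it. Sec61a1 read 219464 on the FTO array and 164710 on the control array, a log2 difference of 0.28, or 1.21-fold higher, and 1.67% of the 239 genes of like signal had a higher difference. This value depended on the scaling, with 0.09 under cyclic loess and -0.01 under 75th percentile scaling, and it was also within the spot error with normexp and no background subtraction (0.17). Sec61b read 196487 and 187310, a difference of -0.08, within the spot error, but past it with 75th percentile scaling (-0.36) and cyclic loess (-0.25). Its second probe gave -0.0052 (4713 and 3531).

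**Figure D3:**
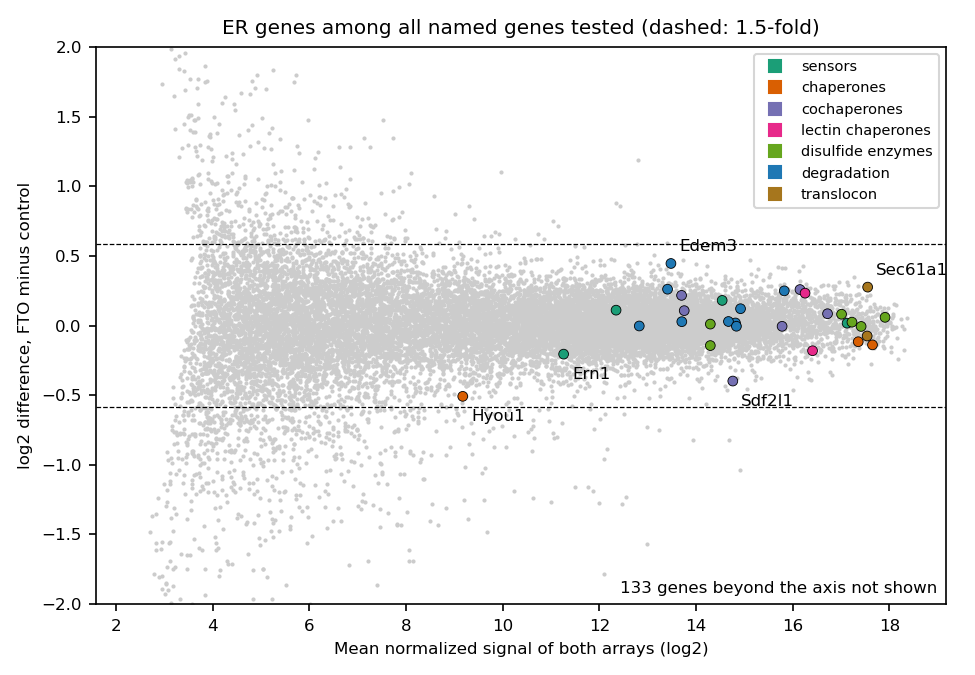
Log2 difference (FTO array minus control array) against the mean normalized log2 signal of both arrays for the 18513 genes tested (grey) and the 32 ER genes (colored by role). The dashed lines mark 1.5-fold, 133 genes lie beyond the axis, and no ER gene crosses a dashed line.

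The spread of the differences narrows with signal in this plot, and 13 of the 32 ER genes lie at a mean log2 signal of 16 to 20. There the scaling mattered most. The 13 had a median of 0.02 and the 710 genes in that range one of 0.03 after quantile normalization, but -0.21 and -0.13 with 75th percentile scaling and -0.12 and -0.05 with cyclic loess. At 12 to 14 the 7 ER genes had a median of 0.11, against 0.01 for the 3920 genes there, with 0.13 and 0.14 for the same 7 under the other scalings. At 14 to 16 the medians were 0.01 for the 10 ER genes and 0.02 for the 2329 genes. Over the ways of processing that gave a value (10, or 9 for Hyou1, Canx, Pdia5 and Syvn1), 13 ER genes kept a positive sign and 8 a negative one, while 11 took both signs. The share of all genes tested that kept their sign was not counted. The 13 were Atf6, Eif2ak3, Dnajb9, Dnajc3, Dnajc10, Canx, Pdia5, Edem1, Edem2, Edem3, Sel1l, Syvn1 and Derl1. The 8 were Ern1, Hspa5, Hsp90b1, Hyou1, Sdf2l1, Calr, Pdia4 and Sec61b.

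**Figure D4:**
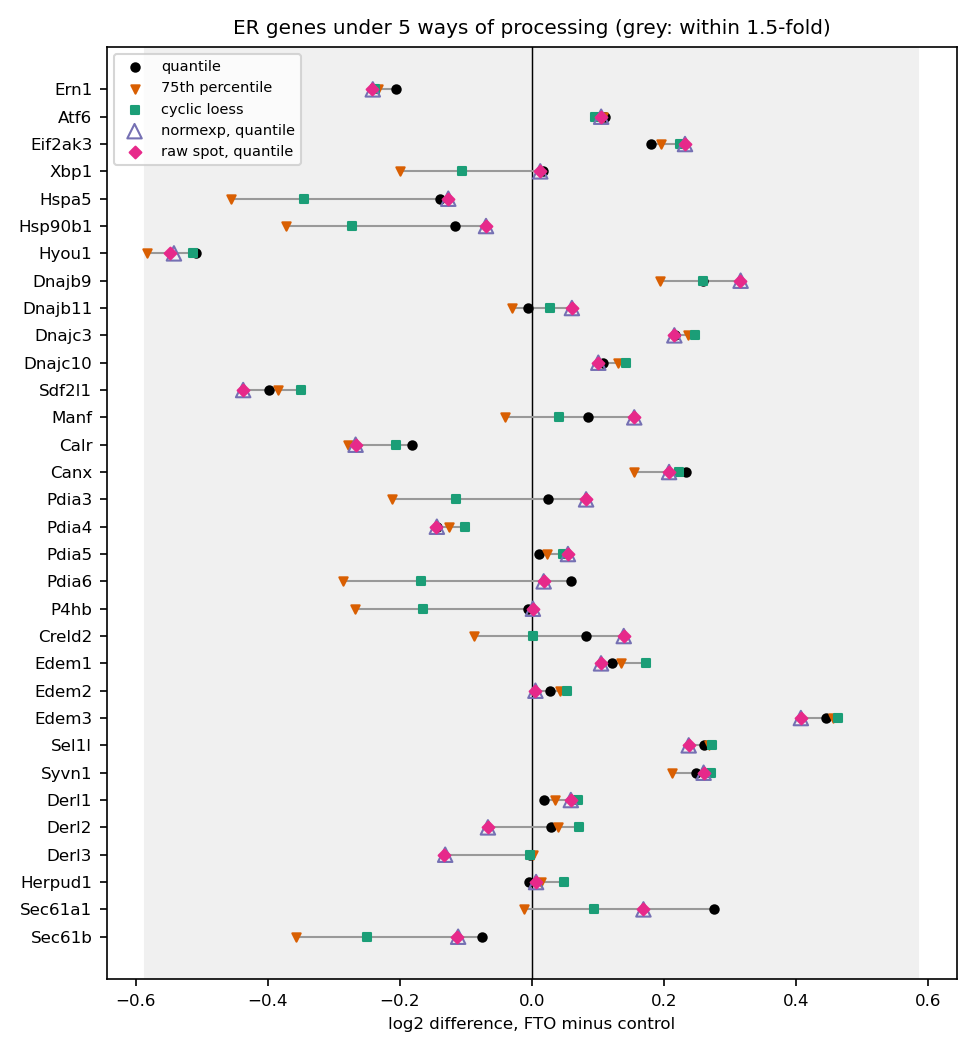
Log2 difference (FTO array minus control array) of each ER gene under 5 ways of processing, joined by a line, with grey for the range within 1.5-fold. Edem3, Sel1l and Sdf2l1 move little, while Hspa5 moves to -0.46 and Sec61a1 to -0.01 with 75th percentile scaling.

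Probes of 1 gene describe the spread within the arrays. Among 2055 genes with 2 probes over the signal limit, the differences of the 2 probes were apart by a median of 0.10 and by 0.28 at the 90th percentile. Of the 7 ER genes with over 1 probe, Dnajb9 and Pdia6 had second probes 0.19 from the one used, Dnajc10, Derl1 and Sec61b had theirs 0.02 to 0.07 from it, and Derl2 had 2 further probes 0.07 and 0.28 from it. The dim second probe of Dnajb11 was 0.43 from the first. The last probe of Derl2, in a block that had lost signal, lay past the 90th percentile. That of Dnajb11 is below the signal limit, so the percentile does not cover it. The other 25 ER genes had 1 probe each, among them Edem3, Hyou1, Sdf2l1, Sel1l and Sec61a1, so their values have no second probe beside them.

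Set beside the promoters above, the 11 genes with ERSE or ERSE-II had a median log2 difference of -0.0032, with 5 above 0 and 6 below. Syvn1 (0.25), Canx (0.23) and Dnajc3 (0.22) were the highest of these, and Calr (-0.18) and Hspa5 (-0.14) the lowest. The 16 ER genes with a promoter but neither element had a median of 0.03, and the 21 other genes tested with either element had one of 0.07. The genes that share the element lay on both sides of 0.

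A further list of 101 genes of ER translocation, glycosylation, oxidative folding, degradation and stress signalling was examined in the same way. All were well above background on both arrays. Their median was 0.04, with 65 above 0 (64.4%, against 51.6% of all genes tested) and 35 below, but with 75th percentile scaling it was -0.0070, with 49 above and 52 below. Past 1.5-fold, 1 was higher and 1 lower (0.99% each, against 2.8% and 4.15% of all genes tested and 0.0901% and 0.4% of those over the signal limit). Ubxn4, which tethers the ATPase p97 to the ER for degradation, read 215.3 on the FTO array and 115.4 on the control array, a difference of 0.67. It did not pass 1.5-fold with 75th percentile scaling, with normexp or without background subtraction. Trib3, a pseudokinase gene induced by ATF4 and CHOP, read 22924 and 29975, a difference of -0.82. Past the spot error, 13 of the 101 were higher (12.9%, against 14.3% of all genes tested and 7.63% of those over the signal limit) and 7 lower (6.93%, against 13.5% and 6.07%). With 75th percentile scaling these counts were 9 and 12, and with normexp or no background subtraction 8 and 6. The shares of all genes tested were not counted under these alternatives.

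By role, the 16 genes of oxidative folding had a median of 0.08, the 15 further cochaperones and prolyl isomerases 0.05, the 18 of N-glycan addition and trimming 0.03, the 17 of translocation and signal peptide removal 0.07 and the 19 of degradation 0.03. With 75th percentile scaling these medians were 0.0009, -0.04, -0.01, 0.03 and 0.05. The brightest probe of the first 4 roles gave 0.08 for the oxidase gene Ero1b, 0.10 for the prolyl isomerase gene Ppib, 0.12 for the oligosaccharyltransferase gene Rpn2 and 0.22 for the signal peptidase gene Spcs1. All 4 were below 0 with 75th percentile scaling (-0.18, -0.08, -0.16 and -0.08). Past the spot error, 6 of the 19 degradation genes were higher and 0 lower, where the background was 14.3% and 13.5% of all genes tested and 7.63% and 6.07% of those over the signal limit. The higher count was 4 with 75th percentile scaling, normexp or no background subtraction, and cyclic loess gave 5 higher and 1 lower. For these counts, too, the shares of all genes were not counted. None of the 18 glycan genes was past the spot error, but 2 were lower by more than it with 75th percentile scaling. The difference between these roles was not tested. The 16 stress signalling genes had a median of -0.06, with 10 below 0, where 8935 of all 18513 genes tested were below 0. Past the spot error, 5 were lower (background 13.5% of all genes tested and 6.07% of those over the signal limit) and 1 was higher (background 14.3% and 7.63%). The median was -0.16 with 75th percentile scaling, with 11 below 0 and 5 above. With normexp it was -0.02, with 9 below 0 and 7 above. Chosen after their values were seen, Ddit3, which encodes the pro-apoptotic factor CHOP, read 5082 and 5442 (-0.52), and Ppp1r15a, which encodes the phosphatase subunit GADD34, read 18929 and 17082 (-0.29). Atf4, the factor upstream of both, read 192373 and 161059 (0.09, but -0.17 with 75th percentile scaling). Sec11c, a signal peptidase subunit also chosen this way, read 69770 and 39556 (0.42). Its probe lay in a block that had lost signal, so no value remained without those blocks.

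**Figure D5:**
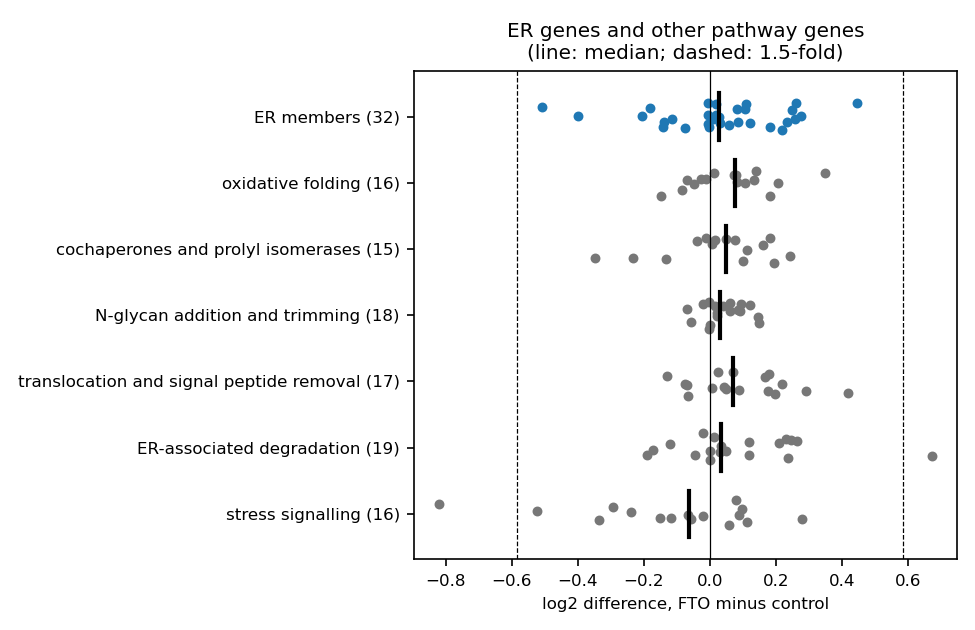
Log2 difference (FTO array minus control array) of the 32 ER genes (blue) and of 101 other genes of the pathway by role (grey), with a bar at the median of each row, dashed lines at 1.5-fold and points spread vertically for legibility. Only Ubxn4 (0.67) and Trib3 (-0.82) lie beyond the dashed lines.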

How the data were processed

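Total RNA of MIN6 cells was measured on 2 one-color arrays, 1 labelled FTO and 1 labelled control. The authors deposited the spot intensity tables written by Agilent Feature Extraction 11.0.1.1, in which local background is subtracted and the trend within the array removed, and a table of log2 values for 33870 probes, which the methods say were quantile normalized in GeneSpring GX. The deposited log2 values had a median of 9.13 on each array and differed from the values below by a mean of 0.0032. They were not centred, and the rule for the listed probes is not given in the sources used here.

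Control spots and outlier spots (148 on the array labelled FTO, 141 on the control array) were left out, no spot was saturated, log2 signals were averaged over the spots of each probe, and the arrays were brought to 1 distribution by quantile normalization (limma 3.58.1, R 4.3.3), which was checked on simulated data. Tables and figures were made with Python 3.11.15, pandas 2.3.3, numpy 2.4.6 and matplotlib 3.10.9. Of 39417 probes, 27224 were named by RefSeq accession through the gene table of GRCm38.p6. A gene took the brightest of its probes that either array had well above background (in 50% or more of the spots where printed 10 times), which left 18513 genes tested. Quoted signals are before normalization, in the arbitrary units of the scanner, and differences are normalized log2 values, FTO minus control. Calls were a difference past 1.5-fold or 2-fold.

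Every ER gene is named. Of the further list, genes past 1.5-fold and the brightest of each role are named (1 is not reported here), with any others said to be chosen after their values were seen. The members and lists were chosen with earlier results of these data known. The 9 alternatives were 75th percentile scaling, cyclic loess, normexp with an offset of 50 (on median spot signals), no background subtraction, the authors' log2 values, the mean of all probes, the filter on both arrays, no filter, and leaving out blocks where at least 15% of repeated spots were over 0.5 (log2) below their probe's median. Terminal retention signals of the proteins were planned and not analysed here.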

Additional observations from a re-analysis of the deposited data

How the results depend on the processing

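No paired analysis was possible because each condition had 1 array, and for the same reason no replicate could be left out. Across the 10 ways of processing, the median of the 32 ER genes ran from -0.0046 to 0.06, and none of them passed 1.5-fold in any. With 75th percentile scaling the medians were -0.046 for the sensors, -0.46 for the Hsp70 and Hsp90 chaperones, -0.17 for the disulfide enzymes, -0.18 for the translocon and -0.06 for the lectin chaperones, with a reversed sign in each but the Hsp70 and Hsp90 chaperones, and 4 ER genes were past the spot error higher and 10 lower. With cyclic loess they were -0.35 for the chaperones, -0.11 for the disulfide enzymes, -0.078 for the translocon and -0.0053 for the sensors, the last 3 reversed, and 7 genes were past the spot error lower. The bright genes of the whole array moved the same way under these scalings, whereas the median of all genes tested moved to -0.06 at most. Without the blocks that lost signal, 28 of the 32 genes had a value, the lectin chaperones were left with Calr at -0.18, 6 genes were past the spot error higher, with Pdia6 added and Canx and Syvn1 without a value, and 1 was past it lower, since Ern1 came to lie within it and Hyou1 had no value. In the further list, 0 genes were past 1.5-fold higher with 75th percentile scaling, with normexp or without background subtraction. Shares of all genes were not counted under the alternatives, so these counts have no background beside them. Normexp and no background subtraction gave the lectin chaperones -0.03. Of 163 single-gene values under the alternatives that could move them (the others reuse the same probe and normalization), 152 stayed within the spot error of the value reported and 11 moved by more. The cause of these shifts was not tested. The probes used for all 32 genes were well above background on both arrays.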
